A study of Arabidopsis thaliana with 12 samples.

Results

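The nuclear genes of the light-harvesting antennae and core subunits of photosystems I and II were examined in leaves of Arabidopsis thaliana. The 43 genes were chosen by locus from 33602 loci in the deposited count table, by a rule that uses no measured value, although the gene set was proposed with earlier results of these data known. They form 4 classes: 6 LHCA genes for the antenna of photosystem I, 14 LHCB genes for the antenna of photosystem II, 12 genes (PSAD1 to PSAO) for subunits of photosystem I and 11 genes (PSBO1 to PSBY and PSBTN) for subunits of photosystem II. All 43 passed the filter on low counts.

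Both lines were in the Columbia-0 ecotype and carried cat2-2, a mutation in the leaf peroxisomal catalase gene CAT2. The first line, cat2 gox1, also carried a mutation in GOX1, and the second, cat2 gox2, a mutation in GOX2; both genes encode glycolate oxidase, the peroxisomal enzyme of photorespiration that releases hydrogen peroxide. Plants were grown for 3 weeks at 3000 ppm CO2 and 120 µmol of photons per m2 per s, with 75% humidity and 21 °C, and this is called high CO2 here. High light means 3 h in another chamber at 400 ppm CO2, 1200 µmol per m2 per s and 55% humidity. Light, CO2, humidity, chamber and elapsed time therefore changed together and cannot be told apart, and no group with an intact CAT2 was analysed here. Each of the 4 groups had 3 libraries, described as biological repeats, and each held leaves of 15 plants, pooled.

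Photosystems I and II are pigment-protein complexes of the thylakoid membrane that turn absorbed light into electron flow. Antenna proteins of the LHCA and LHCB families bind chlorophyll and pass excitation energy to the reaction centres. The reaction centre proteins are encoded in the chloroplast, and organellar transcripts were not analysed here, while the antenna proteins and many peripheral subunits are encoded in the nucleus. Transcripts of these nuclear genes are known to be among the most abundant in green leaves and to respond to light, the circadian clock and signals from the chloroplast.

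Library totals were 19571516 to 25314811 counts. The 43 genes took 14.9% to 19.0% of all counts in the 6 libraries under high CO2 and 7.62% to 11.3% in the 6 libraries after high light. The unit of level below, CPM, is the read count relative to the scaled library total. GOX1 was at 128 to 284 CPM in cat2 gox1 and at 943 to 2197 CPM in cat2 gox2. GOX2 was at 451 to 1199 CPM in cat2 gox1 and at 6.98 to 16.8 CPM in cat2 gox2, except at 122 CPM in high light library 2 of cat2 gox2. That library differs from its group in the gene the label names, so the cat2 gox2 counts are also given without it. CAT2 was at 44.0 to 120.0 CPM throughout.

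The libraries numbered 3 stood apart in this gene set in 3 of the 4 groups. Against the mean of the other libraries of its group, the median gene of the 43 in library 3 differed by -0.39 on the log2 scale in cat2 gox1 under high CO2 (39 of 43 genes lower) and by -0.63 in cat2 gox1 after high light (43 of 43). The difference was -0.30 in cat2 gox2 under high CO2 (39 of 43) and -0.03 in cat2 gox2 after high light (28 of 43). The same difference over all tested genes lay between -0.01 and 0.01 in all 4 groups. Total and class counts of called members are therefore given with and without the 4 libraries numbered 3, and what sets these libraries apart was not tested.

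**Figure D1:**
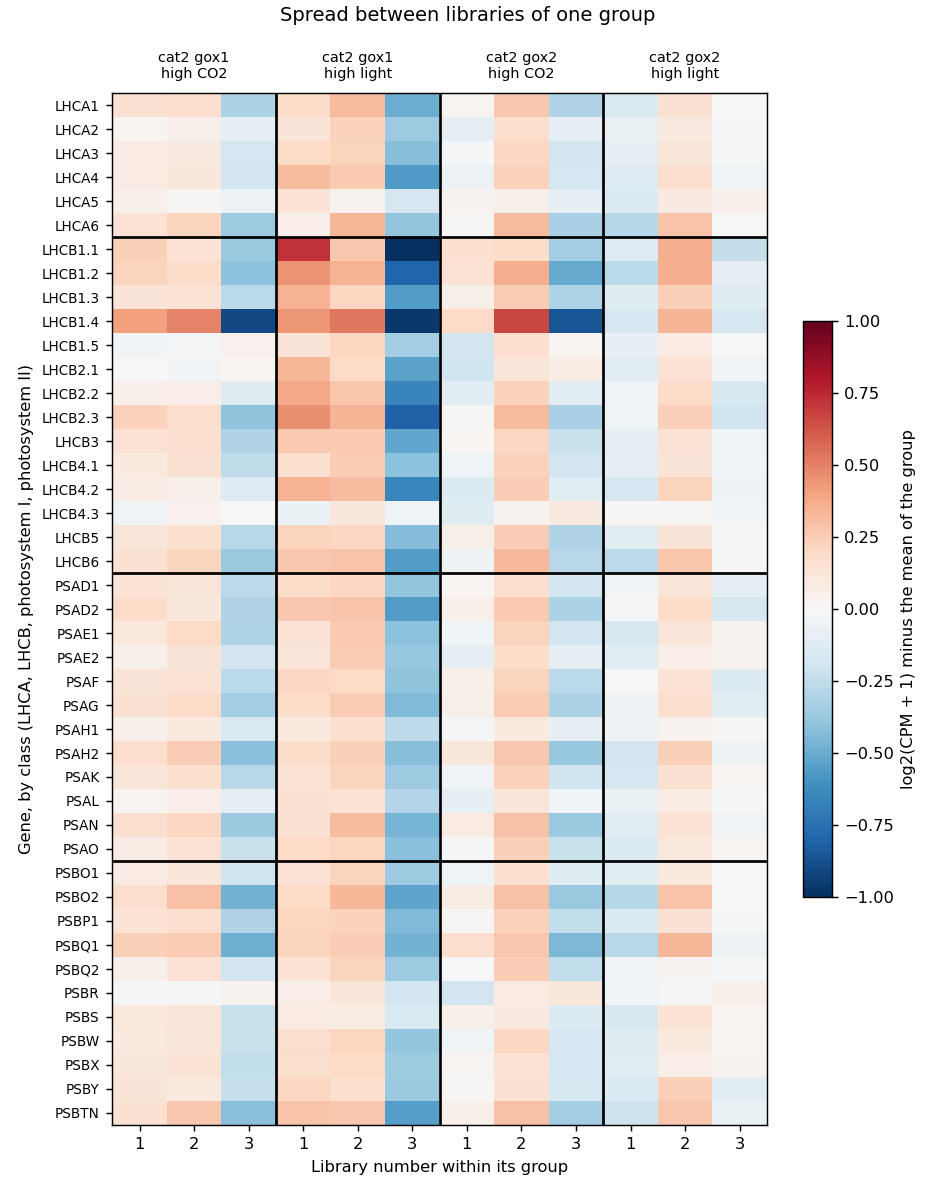
Each cell shows a gene's log2(CPM + 1) in a library minus the mean of its group, with the 43 genes in rows by class and the 12 libraries in columns by group. The column for library 3 is blue for 43 of 43 genes in cat2 gox1 after high light and for 39 of 43 in both high CO2 groups, and LHCB1.4 has the widest spread.

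Several members are near-identical copies, which limits how far reads can be assigned to a single locus. LHCB1.2, LHCB1.1 and LHCB1.3 lie next to each other on chromosome 1 (10472280 to 10479114, TAIR10.1), and their coding sequences are 95.6% to 96.4% identical. LHCB1.5 and LHCB1.4 are neighbours on chromosome 2 (14522524 to 14525918) with 92.5% identity, and LHCB2.1 and LHCB2.2 on the same chromosome share 92.1%. Stretches of 50 bases that also occur in another member make up 20.5%, 10.6% and 17.0% of LHCB1.1, LHCB1.2 and LHCB1.3, 13.7% and 17.3% of LHCB1.4 and LHCB1.5, and 22.7% and 28.2% of LHCB2.1 and LHCB2.2. They make up 0% of the other 36 members. The values of these 7 LHCB genes are uncertain as single genes, so sums over the copies are given beside them.

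The promoters of the LHCB2 genes are shown because these 3 genes include the member that fell most in both lines, and that of LHCB1.4 because it is an antenna gene of the same family that did not pass the test in either line. Each is the 250 bases before the annotated gene start, written on the gene's strand 5′ to 3′, from the RefSeq TAIR10.1 genome at chr2:1824481-1824730 (minus strand, LHCB2.1), chr2:1800473-1800722 (minus, LHCB2.2), chr3:10255656-10255905 (plus, LHCB2.3) and chr2:14524357-14524606 (plus, LHCB1.4). None overlaps another annotated gene. Capitals mark the matches to 5 motifs searched on both strands: the G-box CACGTG, the CCA1 site AAAAATCT, the evening element AAAATATCT, the I-box GATAAG and the CCAATC element.
LHCB2.1: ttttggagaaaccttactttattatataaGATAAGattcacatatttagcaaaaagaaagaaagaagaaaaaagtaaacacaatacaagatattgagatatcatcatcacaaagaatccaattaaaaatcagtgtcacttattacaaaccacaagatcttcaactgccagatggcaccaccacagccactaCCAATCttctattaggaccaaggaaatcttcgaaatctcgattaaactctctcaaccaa
LHCB2.2: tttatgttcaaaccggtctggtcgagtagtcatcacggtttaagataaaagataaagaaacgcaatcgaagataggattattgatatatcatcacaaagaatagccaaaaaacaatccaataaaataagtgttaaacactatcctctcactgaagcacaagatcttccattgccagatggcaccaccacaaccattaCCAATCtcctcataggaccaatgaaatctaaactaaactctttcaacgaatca
LHCB2.3: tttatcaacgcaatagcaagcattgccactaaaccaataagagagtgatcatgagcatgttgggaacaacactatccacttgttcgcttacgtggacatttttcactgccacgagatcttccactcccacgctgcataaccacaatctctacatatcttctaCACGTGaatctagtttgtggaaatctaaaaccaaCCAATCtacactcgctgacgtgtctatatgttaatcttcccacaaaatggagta
LHCB1.4: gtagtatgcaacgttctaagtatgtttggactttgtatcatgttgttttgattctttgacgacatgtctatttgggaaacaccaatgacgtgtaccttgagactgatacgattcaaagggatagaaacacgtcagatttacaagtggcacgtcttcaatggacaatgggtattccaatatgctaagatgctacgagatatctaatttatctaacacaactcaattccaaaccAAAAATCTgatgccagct

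CCAATC stands at a similar distance from the gene start in all 3 LHCB2 promoters, with its first base at -59 in LHCB2.1, -53 in LHCB2.2 and -54 in LHCB2.3. LHCB2.3 also holds a G-box at -88 and LHCB2.1 an I-box at -221. LHCB1.4 has no CCAATC in this window and holds a CCA1 site at -18. The SE of its log2 fold change was 0.48 in each line, so its result does not show that it did not fall. LHCB1.1 (CCA1 site at -78) and LHCB4.3 also lack CCAATC in this window, and both passed the test as lower after high light in each line. LHCB4.1 holds 2 CCAATC matches and passed the test as lower in cat2 gox2 but not in cat2 gox1. Whether any motif goes with the fall was not tested. Over the classes, CCAATC occurred in 3 of 6 LHCA, 7 of 14 LHCB, 0 of 12 photosystem I and 1 of 11 photosystem II promoters, and in 10.6% of the 18543 promoters of tested genes. The G-box occurred in 9 of 43 promoters (20.9%, against 7.49% of tested genes), the I-box in 9 (20.9%, against 12.3%), the CCA1 site in 5 (11.6%, against 6.91%) and the evening element in 1 (2.33%, against 2.56%). No matches overlapped each other. These are letter matches, given as a description, and no factor's binding was measured.

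Transcripts of both antennae and of both photosystems were lower after high light in each line. In cat2 gox1, 37 of the 43 genes fell and 0 rose, where 26.5% of all 18967 tested genes fell and 25.6% rose. In cat2 gox2, 41 fell and 0 rose, where 29.2% of tested genes fell and 27.7% rose. The median log2 fold change over the 43 genes was -0.81 in cat2 gox1 and -0.93 in cat2 gox2, beside -0.06 and -0.09 over all tested genes. A gene is said to have fallen where edgeR's quasi-likelihood test gave a Benjamini-Hochberg adjusted p under 0.05 over all tested genes, and every adjusted p below for a single gene comes from that test.

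The summed LHCB level was the highest of the 4 classes and stood after high light at 53.4% of its high CO2 level in cat2 gox1 and at 51.2% in cat2 gox2. The LHCB sums were 78517, 78806 and 61053 CPM in libraries 1, 2 and 3 of the cat2 gox1 high CO2 group and 46201, 44659 and 25799 CPM in its high light group. For cat2 gox2 they were 82159.9, 97282 and 69991 CPM and 38826, 48779 and 40197 CPM, in the same order of groups. In each line all 3 libraries after high light were below all 3 under high CO2, and the lowest of the 12 was library 3 of cat2 gox1 after high light. The LHCA sum stood at 56.3% and 52.5% of its high CO2 level in cat2 gox1 and cat2 gox2, the photosystem I sum at 62.4% and 58.3%, and the photosystem II sum at 61.2% and 53.8%. For LHCA the group means were 25292 ± 2858 and 14234 ± 3595 CPM in cat2 gox1, and for the second line 27823 ± 4064 and 14619 ± 1292 CPM (SD, n = 3), each pair with high CO2 first. No test was run on these sums. In these bulk leaf samples, fewer cells of a type and less RNA per cell cannot be told apart.

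**Figure D2:**
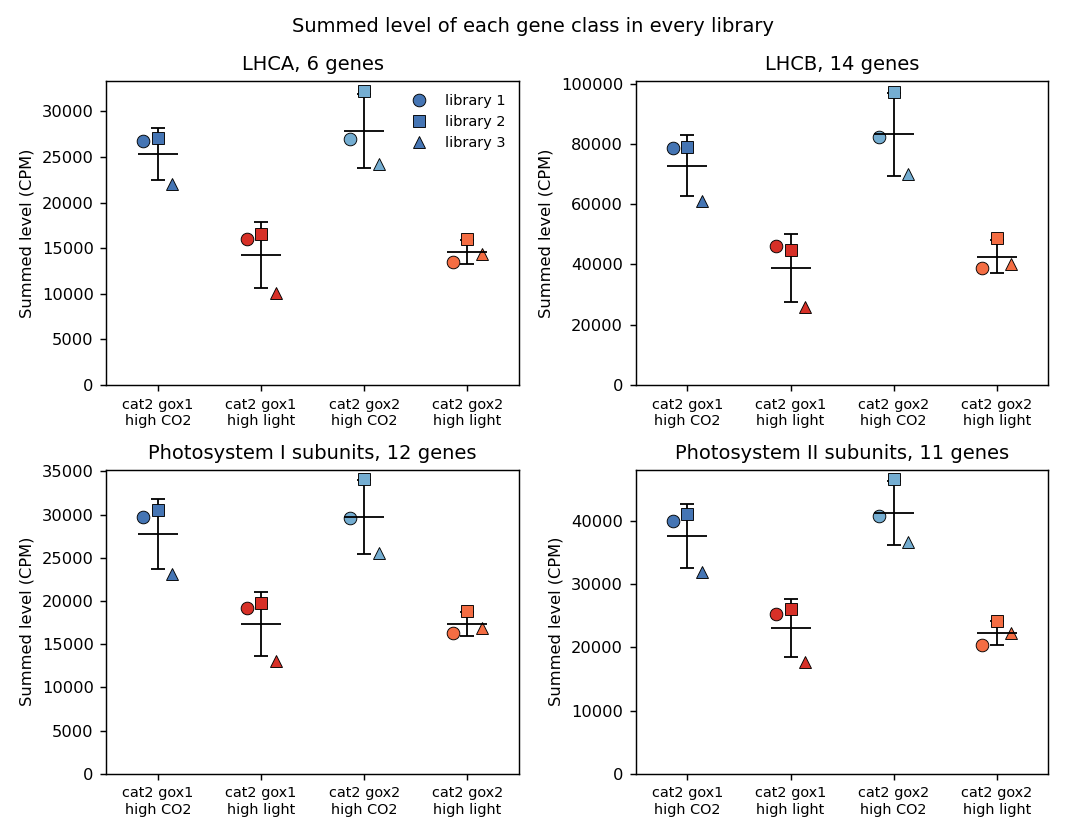
Summed CPM of each class on a linear axis from 0, with each of the 12 libraries as a point (circle, square and triangle for libraries 1, 2 and 3) and the mean ± SD of each group as bars. In all 4 classes and both lines the 3 libraries after high light lie below the 3 under high CO2, and library 3 of cat2 gox1 after high light is the lowest point.

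By class, 6 of 6 LHCA, 12 of 14 LHCB, 9 of 12 photosystem I and 10 of 11 photosystem II genes fell in cat2 gox1. In cat2 gox2 the counts were 6 of 6, 13 of 14, 11 of 12 and 11 of 11. Leaving out the 4 libraries numbered 3 lowered all 4 class counts of the first line, to 5, 11, 7 and 8. Those of the second line stayed at 6, 13, 11 and 11. Class medians of the log2 fold change were -0.78 for LHCA, -1.11 for LHCB, -0.63 for photosystem I and -0.81 for photosystem II in cat2 gox1. For cat2 gox2 they were -0.91, -1.12, -0.74 and -0.96 in the same order. Genes that fell by at least 2-fold numbered 16 in cat2 gox1, of which 9 were LHCB genes, and 18 in cat2 gox2, of which 10 were LHCB genes; among all tested genes 11.5% and 12.9% did so. The 3 libraries after high light lay below the 3 under high CO2 for 38 of the 43 genes in cat2 gox1 (29.8% of tested genes) and for 42 in cat2 gox2 (32.4%). Whether the classes differ from each other was not tested.

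The count in cat2 gox1 depended on single libraries. It was 26 without high CO2 library 1 or library 2 and 29 without high light library 3. The 11 calls lost without either high CO2 library were those of LHCA1, LHCA2, LHCB1.2, LHCB1.3, PSAE1, PSAK, PSAN, PSBO1, PSBO2, PSBR and PSBTN, with adjusted p between 0.051 and 0.151. Over all tested genes the count in cat2 gox1 also dropped, from 5022 of 18967 with all libraries. It was 4104 of 19169 and 4207 of 19145 without high CO2 library 1 and 2, and 4325 of 19147 without high light library 3. Without the 4 libraries numbered 3, 31 of the 43 genes fell in cat2 gox1 and 41 in cat2 gox2. In cat2 gox2 the count was 34 without high CO2 library 2 or high light library 1, 35 without high light library 3 and 39 without high light library 2, the library with GOX2 reads. Over all tested genes, 5533 of 18967 fell in cat2 gox2 with all libraries. In those fits, in the same order, 4658 of 19158, 4706 of 19168, 4714 of 19151 and 5048 of 19152 fell. In each of the 12 fits that left out 1 library, 26 genes kept their call in cat2 gox1 and 33 in cat2 gox2.

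**Figure D3:**
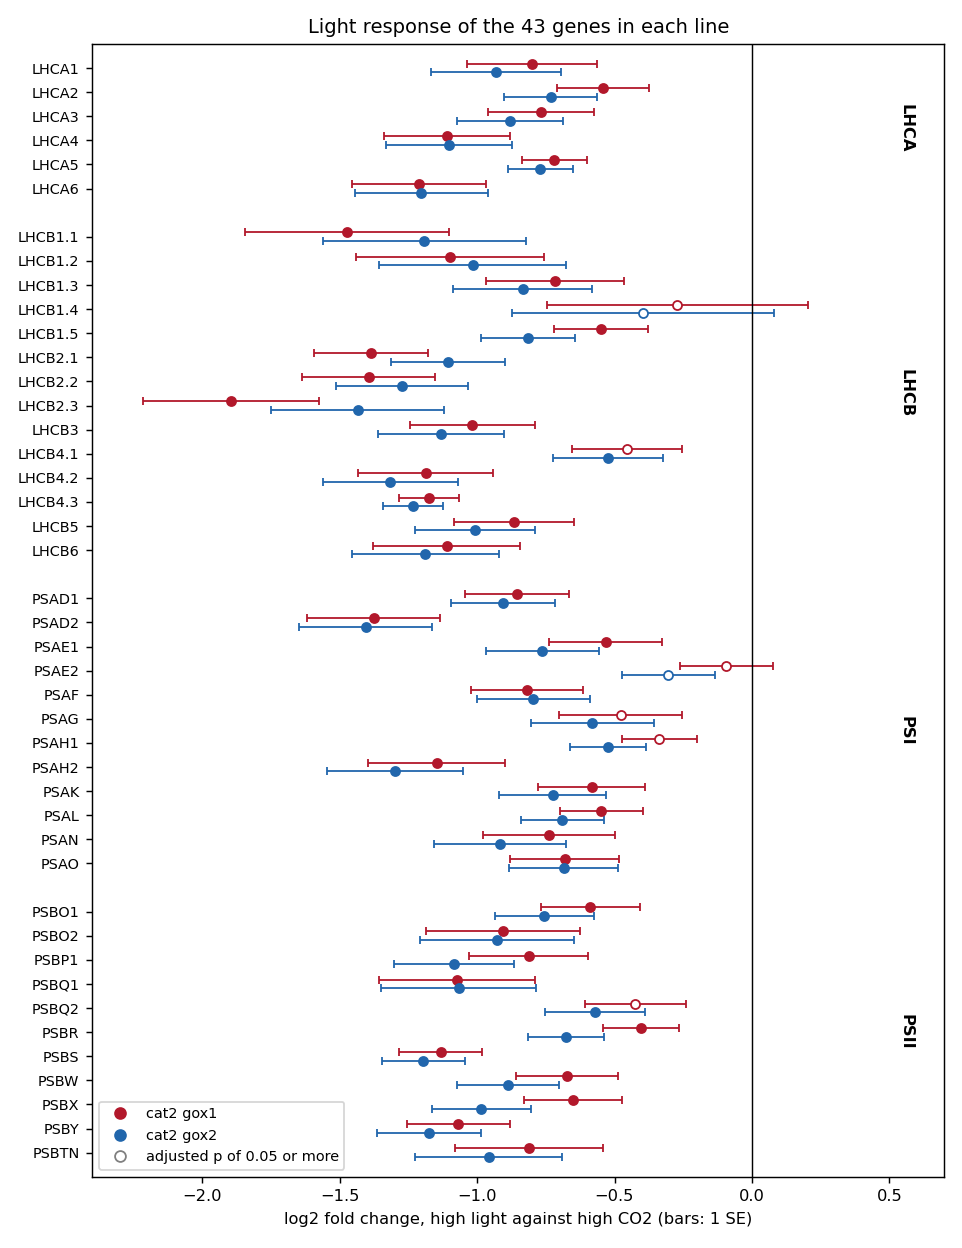
The log2 fold change of each of the 43 genes after high light against high CO2, with bars of 1 SE, in cat2 gox1 (red) and cat2 gox2 (blue); open circles have an adjusted p of 0.05 or more. All points lie below 0, LHCB2.3 lies lowest in both lines, and 6 points in cat2 gox1 and 2 in cat2 gox2 are open.

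Among the genes of the major trimeric antenna of photosystem II (LHCB1, LHCB2 and LHCB3), LHCB2.3 fell most in both lines. LHCB2.3 (AT3G27690) was at 2389, 2285 and 1542 CPM in libraries 1 to 3 of the cat2 gox1 high CO2 group and at 717, 658 and 296 CPM in its high light libraries. In cat2 gox2 it was at 2192, 2707 and 1736 and, in high light, at 789.6, 959 and 706 CPM. The groups did not overlap in either line, and library 3 was the lowest of its group in all 4 groups. The log2 fold change of LHCB2.3 was -1.90 (SE 0.32, adjusted p = 0.000543) in the first line and -1.43 (SE 0.31, adjusted p = 0.00243) in the second. LHCB2.1 had log2 fold changes of -1.38 and -1.11, and LHCB2.2 of -1.39 and -1.27. Summed over both near-identical copies, LHCB2.1 and LHCB2.2 had log2 fold changes of -1.39 in cat2 gox1 (SE 0.22) and -1.17 in cat2 gox2 (SE 0.22). All 3 LHCB2 genes fell in every fit that left out 1 library, in both lines.

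The 5 LHCB1 genes, which encode the most abundant antenna protein, differed among themselves. LHCB1.3 had the highest level of them per kb of transcript, at 10579.5 ± 1622 CPM per kb in cat2 gox1 under high CO2 (SD, n = 3). LHCB1.1 (AT1G29920) was at 7447, 6917 and 4874 CPM in the high CO2 libraries of cat2 gox1 and at 3413, 2483 and 1036 CPM in its high light libraries, which spans a range of over 3-fold within the high light group. Its log2 fold change was -1.47 (SE 0.37) in cat2 gox1 and -1.19 (SE 0.37) in cat2 gox2. LHCB1.2 and LHCB1.3 fell in both lines, with log2 fold changes of -1.10 and -0.72 in the first line and -1.02 and -0.83 in the second. In cat2 gox1 their calls were lost without high CO2 library 1 or 2 of that line, and that of LHCB1.3 also without its high light library 3, with adjusted p up to 0.0605 for LHCB1.2 and 0.0935 for LHCB1.3. In cat2 gox2 the calls of LHCB1.1, LHCB1.2 and LHCB1.3 were lost without high light library 1 or 3 of that line, that of LHCB1.2 also without its high CO2 library 1 or 2 and that of LHCB1.3 without its high CO2 library 2, with adjusted p up to 0.0629, 0.0896 and 0.0586. The sum of these 3 copies had log2 fold changes of -0.96 (SE 0.29, adjusted p = 0.0169) and -0.95 (SE 0.29, adjusted p = 0.0152).

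LHCB1.4 (AT2G34430) had libraries that differed by over 2-fold within 3 of the 4 groups. It was at 2243, 2384 and 903 CPM in the high CO2 libraries of cat2 gox1 and at 1877, 1997 and 708 CPM in its high light libraries. In cat2 gox2 it was at 2362, 3295 and 1146 and, in high light, at 1511, 2148 and 1512 CPM. Library 3 was far below the other libraries in 3 of the 4 groups, and the groups overlapped in both lines. The log2 fold change was -0.27 (SE 0.48, adjusted p = 0.654) and -0.40 (SE 0.48, adjusted p = 0.497), and without high light library 3 of cat2 gox1 it turned to 0.07 in that line. Its neighbour LHCB1.5 did not have this spread: it was at 8988, 9056 and 9419.8 CPM in the high CO2 libraries and 6767, 7162 and 4856 CPM in its high light libraries in cat2 gox1. LHCB1.5 fell in both lines, with log2 fold changes of -0.55 and -0.82, and the sum of LHCB1.4 and LHCB1.5 had log2 fold changes of -0.50 (adjusted p = 0.0552) and -0.73 (adjusted p = 0.00862). LHCB3, the remaining protein of the trimers, fell too, with log2 fold changes of -1.02 and -1.13.

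The monomeric antenna proteins LHCB4, LHCB5 and LHCB6 link the trimers to the photosystem II core. LHCB4.3 (AT2G40100) had the smallest SE of the 43 genes. It was at 584, 621 and 603 CPM in the high CO2 libraries of cat2 gox1 and at 254, 288 and 259 CPM in its high light libraries, and at 648, 725 and 751 and, in high light, at 303, 304 and 296 CPM in cat2 gox2. The groups were far apart in both lines, with log2 fold changes of -1.17 (SE 0.11, adjusted p = 8.37e-06) and -1.23 (SE 0.11, adjusted p = 3.69e-06), the lowest adjusted p of the 43 genes in each line. LHCB4.1, the copy with the highest level per kb of the 3, had the values closest to 0 of these copies: its log2 fold changes were -0.45 (adjusted p = 0.0764) and -0.52 (adjusted p = 0.0423), and the call in cat2 gox2 was lost without any of 8 single libraries, with adjusted p up to 0.153. Under high CO2 in cat2 gox1, LHCB4.1, LHCB4.2 and LHCB4.3 were at 3369.5 ± 496, 2387 ± 181 and 456 ± 13.8 CPM per kb (SD, n = 3). LHCB4.2, LHCB5 and LHCB6 fell in both lines, with log2 fold changes of -1.19, -0.87 and -1.11 in cat2 gox1 and of -1.32, -1.01 and -1.19 in cat2 gox2.

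All 6 LHCA genes, which encode the antenna of photosystem I, fell in both lines. LHCA4 (AT3G47470), a subunit of the antenna dimers, was at 8406, 8587 and 6984 CPM in the high CO2 libraries of cat2 gox1 and at 4435, 4277 and 2408 CPM in its high light libraries. In cat2 gox2 it was at 8269, 10105 and 7635 and, in high light, at 3680.4, 4524 and 3912 CPM. The groups did not overlap, and the log2 fold change of LHCA4 was -1.11 (SE 0.23) and -1.10 (SE 0.23) in cat2 gox1 and cat2 gox2. LHCA5 and LHCA6, which are known to attach photosystem I to the NADH dehydrogenase-like complex, had levels far below the other 4, at 257 ± 9.81 and 196 ± 40.5 CPM per kb against 6172 ± 678 for LHCA4 in cat2 gox1 under high CO2. LHCA6 had the largest fall of the class, with log2 fold changes of -1.21 (SE 0.24, adjusted p = 0.00166) and -1.20 (SE 0.24, adjusted p = 0.00142). LHCA2 had the smallest in cat2 gox1, at -0.54, and in cat2 gox2, at -0.73. The cat2 gox1 calls of LHCA1 and LHCA2 were lost without high CO2 library 1 or 2 of that line, with adjusted p up to 0.0524 and 0.0567.

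Photosystem I subunits ranged from the smallest log2 fold change of the 43 genes, that of PSAE2, to a fall of over 2-fold in both lines, that of PSAD2. PSAD and PSAE form the stromal ridge where ferredoxin docks. PSAD2 (AT1G03130) was at 1194, 1139 and 854 CPM in the high CO2 libraries of cat2 gox1 and at 476, 483 and 269 CPM in its high light libraries, and at 1081, 1247 and 838 and, in high light, at 390.4, 449.9 and 356 CPM in cat2 gox2. The groups did not overlap, and the log2 fold change was -1.38 (SE 0.24, adjusted p = 0.000714) and -1.40 (SE 0.24, adjusted p = 0.000492). PSAE2 (AT2G20260) was at 455, 480.3 and 386 and, in high light, at 441, 486 and 313 CPM in cat2 gox1. In the other line it was at 479, 581 and 478 and, in high light, at 386, 435 and 424 CPM. It overlapped between the conditions in cat2 gox1 and had log2 fold changes of -0.09 (adjusted p = 0.667) and -0.30 (adjusted p = 0.145), the smallest of the 43 genes in both lines. Without high light library 3 of cat2 gox1 its value in that line was 0.07. PSAE1 fell in both lines, with log2 fold changes of -0.53 (adjusted p = 0.0472) and -0.76 (adjusted p = 0.0081), and the first of these calls was lost without any of 9 single libraries, with adjusted p up to 0.153. PSAD1 had log2 fold changes of -0.85 and -0.91 and also fell in both.

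For the following subunits, paired values are log2 fold changes in cat2 gox1 and cat2 gox2. PSAF, the docking subunit for plastocyanin, fell with values of -0.82 and -0.79, and the lumenal subunit PSAN with -0.74 and -0.92. PSAL, PSAO and PSAH lie on the side of photosystem I where mobile antenna docks during state transitions. PSAL fell with values of -0.55 and -0.69, PSAO with -0.68 and -0.68, and PSAH2 with -1.15 and -1.30. PSAH1 had a log2 fold change of -0.34 (adjusted p = 0.0582) in cat2 gox1, where it was not called, and of -0.52 (adjusted p = 0.00706) in the other line. PSAG and PSAK sit on the antenna side of the complex. PSAK fell with values of -0.58 and -0.73, while PSAG had log2 fold changes of -0.48 (adjusted p = 0.0935) and -0.58 (adjusted p = 0.0443), with a call in cat2 gox2 that was lost without any of 8 single libraries, with adjusted p up to 0.156. The cat2 gox1 calls of PSAK and PSAN were lost without high CO2 library 1 or 2 or high light library 3 of that line, with adjusted p up to 0.0911 and 0.0806, and the cat2 gox2 call of PSAO without its high CO2 library 2 (adjusted p = 0.0536).

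In photosystem II, PSBS (AT1G44575) had the largest fall of its class in both lines. PSBS senses lumen acidity and is required for the fast thermal dissipation of excess excitation. It was at 3536, 3585 and 2817 CPM in the high CO2 libraries of cat2 gox1 and at 1598, 1583 and 1353 CPM in its high light libraries, and at 3717, 3829 and 3272 and, in high light, at 1408, 1728 and 1588 CPM in cat2 gox2. Every library after high light was below every library under high CO2 in both lines, and the log2 fold change was -1.13 (SE 0.15, adjusted p = 0.000106) and -1.20 (SE 0.15, adjusted p = 5.3e-05). The proteins PSBO, PSBP and PSBQ shield the oxygen-evolving manganese cluster on the lumenal side. PSBP1 fell with log2 fold changes of -0.81 and -1.08, PSBO1 with -0.59 and -0.75, PSBO2 with -0.91 and -0.93, and PSBQ1 with -1.07 and -1.07. PSBQ2 had log2 fold changes of -0.42 (adjusted p = 0.0716) and -0.57 (adjusted p = 0.0196). The cat2 gox2 calls of PSBQ2 and PSBO2 were lost without high light library 1 or high CO2 library 2 of that line, and that of PSBQ2 also without its high light library 3, with adjusted p up to 0.0871 and 0.0616.

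Among the small subunits of photosystem II, PSBY fell with log2 fold changes of -1.07 and -1.17, PSBW with -0.67 and -0.89, PSBX with -0.65 and -0.98, and the lumenal protein PSBTN with -0.81 and -0.96. PSBR, which stabilises the binding of PSBP, fell least of the genes that passed the test in cat2 gox1, from 4620.3, 4629 and 4809 CPM in the high CO2 libraries to 3703, 3827 and 3095 CPM. The groups did not overlap, and the log2 fold change was -0.40 (SE 0.14) in cat2 gox1 and -0.68 (SE 0.14) in cat2 gox2. In cat2 gox1, 6 of the 11 photosystem II genes fell without high CO2 library 1, without high CO2 library 2 or without high light library 3. The calls of PSBO1, PSBO2, PSBR and PSBTN were lost in each of these fits, and their highest adjusted p were 0.0627, 0.0684, 0.0865 and 0.0883. PSBR was also lost without high CO2 library 3 (adjusted p = 0.0762).

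For the 5 core subunits encoded by 2 nuclear copies, the copies did not fall equally in 4. The ratio of the copies' read counts was followed in each library, which needs no scaling between libraries; a ratio of counts is not a ratio of levels per length. This comparison was chosen after the values were seen. It used a two-sided exact permutation test that exchanged condition labels within each line over all 400 arrangements, where the smallest possible p is 0.005, with Benjamini-Hochberg adjustment over the 5 ratios.

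PSAH2 had 1.64 to 2.19 times the reads of PSAH1 in cat2 gox1 under high CO2 and 1.01 to 1.2 times after high light. In cat2 gox2 the ratio was 1.52 to 2.09 and 0.998 to 1.26. The log2 ratio changed by -0.80 in cat2 gox1 and -0.76 in cat2 gox2 (exact permutation p = 0.005, adjusted p = 0.00833), and all 6 libraries after high light lay below all 6 under high CO2. The log2 ratio of PSAD2 to PSAD1 changed by -0.54 and -0.49 (exact permutation p = 0.005, adjusted p = 0.00833), and that of PSAE1 to PSAE2 by -0.43 and -0.46 (exact permutation p = 0.005, adjusted p = 0.00833). Libraries of the conditions did not overlap for either ratio. The log2 ratio of PSBQ1 to PSBQ2 changed by -0.63 and -0.50 (exact permutation p = 0.01, adjusted p = 0.0125), with overlap between the conditions. For PSBO2 to PSBO1 the changes were -0.31 and -0.17 (exact permutation p = 0.06, adjusted p = 0.06) and the libraries overlapped, and the mean change was -0.31, -0.30 and -0.28 without cat2 gox1 high CO2 library 3, cat2 gox2 high CO2 library 3 and cat2 gox2 high light library 2, each of which brought the unadjusted p under 0.05. Within both high CO2 groups, library 3 had the lowest ratio for all 5 pairs. Without the 4 libraries numbered 3 the mean changes were -0.87 for PSAH, -0.50 for PSAD, -0.49 for PSAE, -0.65 for PSBQ and -0.33 for PSBO. Copies of a pair shared 78.9% (PSBQ) to 88.0% (PSAD) of coding bases, and no stretch of 50 bases.

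**Figure D4:**
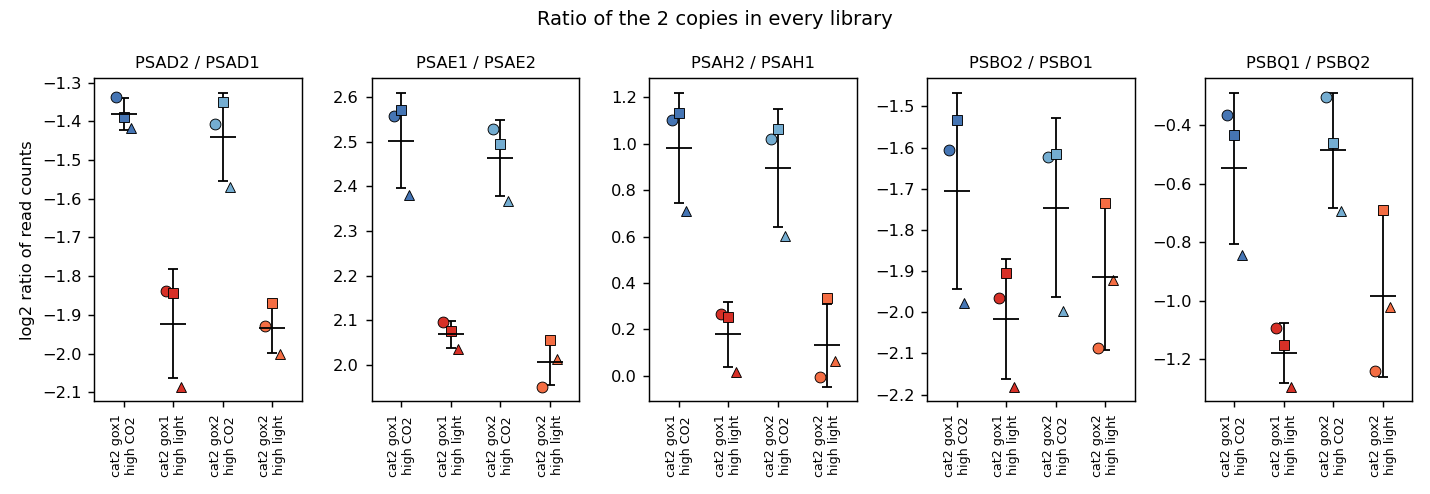
The log2 ratio of read counts of the 2 copies of 5 core subunits in every library, with the mean ± SD of each group as bars and circle, square and triangle for libraries 1, 2 and 3; each panel has its own axis, which does not start at 0. For PSAD, PSAE and PSAH all libraries after high light (red and orange) lie below all libraries under high CO2 (blue), and for PSBO they overlap.

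No difference between the lines passed the test in any of the 43 genes. Under high CO2, 0 of 43 genes passed the test for a difference between cat2 gox2 and cat2 gox1 (0.0158% of tested genes higher in cat2 gox2 and 0% lower), and after high light 0 of 43 (5.27% higher and 1.28% lower). The difference of the light responses passed the test for 0 of 43 genes (positive in 0.996% of tested genes and negative in 0.0422%). Without a block for the replicate number, edgeR's test also gave 0 members at an unadjusted p under 0.05 in each of these 3 comparisons (2.69%, 20% and 10.1% of tested genes), and DESeq2 called 0. SEs of the line difference were 0.11 to 0.48 on the log2 scale under either condition and 0.15 to 0.67 for the difference of responses, which limits the differences that could be detected.

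Under high CO2, the fitted level was higher in cat2 gox2 for 41 of 43 genes, with a median log2 difference of 0.14 beside -0.01 over all tested genes. The summed level of the 43 genes was higher in cat2 gox2 within every number, at 179444 against 174985 CPM for number 1, 210301 against 177518 CPM for number 2 and 156357 against 138007 CPM for number 3. Within numbers 1, 2 and 3, 30, 43 and 41 of the 43 genes were higher in cat2 gox2, by a median of 0.03, 0.22 and 0.18 on the log2 scale. The medians over all tested genes within these numbers were 0.0098, -0.012 and -0.0021. High CO2 libraries of the same number deviated together in both lines. Libraries 1 and 2 also did so across numbers, so these deviations do not show that numbers 1 and 2 are paired. With the number as a block in the 6 high CO2 libraries, a fit added after the values were seen, edgeR's test still called 0 of 43 genes (lowest adjusted p = 0.354). At an unadjusted p under 0.05, that fit gave 15 of 43, beside 11.6% of tested genes. The members share the same 6 libraries and are not independent of each other. In LHCA2, LHCB1.5, LHCB4.3 and PSAL the 3 libraries of cat2 gox2 lay above those of cat2 gox1, which also held for 3.62% of tested genes. After high light the median log2 difference was 0.02, from -0.25 for PSBX to 0.55 for LHCB2.3. Its direction there changed with the library number. Within numbers 1, 2 and 3 after high light, 3, 19 and 43 of the 43 genes were higher in cat2 gox2, with medians of -0.26, -0.02 and 0.42. The medians over all tested genes after high light were -0.0033, 0.0033 and 0.0077. LHCB2.1 and LHCB4.3 did not overlap there, both higher in cat2 gox2, as did 15.8% of tested genes. LHCB2.1 was at 1655, 1507 and 905 CPM in the high light libraries of cat2 gox1 and at 1691, 2007 and 1777 CPM in those of cat2 gox2, and its log2 difference of 0.43 (SE 0.20, adjusted p = 0.274) had the lowest adjusted p of the 43 genes. For LHCB2.3 the difference of responses was 0.46 (SE 0.44, adjusted p = 0.886), where the log2 fold change was -1.90 in cat2 gox1 and -1.43 in cat2 gox2, both tests resting on 3 libraries a group.

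The median difference between high light and high CO2 libraries of the same number was -0.75, -0.76 and -0.97 for numbers 1, 2 and 3 in cat2 gox1, while for cat2 gox2 it was -1.09, -0.99 and -0.69, over the 43 genes on the log2 scale. In cat2 gox1 43, 42 and 43 of the genes were lower after high light within numbers 1, 2 and 3, and in cat2 gox2 43, 43 and 42. The largest difference was thus within number 3 in cat2 gox1 and within number 1 in cat2 gox2. The labels do not say that equal numbers mark the same repeat of the experiment.

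Most of the other listed nuclear genes of photosynthesis and its regulation fell with the 43 genes. Of 14 genes for electron carriers and ATP synthase, 12 fell in cat2 gox1 and 12 in cat2 gox2. Of 7 genes for antenna import and insertion and for the GLK transcription factors, 6 and 7 fell, and of 13 photosystem assembly genes 13 and 12. Of 3 genes for the thylakoid kinases and the antenna phosphatase, 2 fell in each line. None of these 37 genes rose. Among all tested genes 26.5% fell and 25.6% rose in cat2 gox1, and 29.2% fell and 27.7% rose in cat2 gox2. The lists were chosen with earlier results of these data known. The list medians of the log2 fold change were -0.82, -1.07, -0.79 and -0.63 in cat2 gox1, and in cat2 gox2 they were -0.92, -1.10, -0.93 and -0.70.

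GLK2, a transcription factor known to activate genes of antenna proteins and chlorophyll synthesis, was at 152 ± 2.39 and 54.5 ± 5.13 CPM in the high CO2 and high light groups of cat2 gox1 and at 158 ± 11.2 and 49.5 ± 9.79 CPM in those of cat2 gox2 (SD, n = 3). Its log2 fold change was -1.48 (SE 0.15, adjusted p = 1.3e-05) and -1.68 (SE 0.15, adjusted p = 3.41e-06). CPSRP43, the chloroplast signal recognition particle subunit that binds antenna proteins, was at 338 ± 56.3 and 97.3 ± 24.3 CPM in cat2 gox1 and fell with log2 fold changes of -1.80 and -1.68 in cat2 gox1 and cat2 gox2. In cat2 gox2 both values lay below those of all 43 genes. ATPD, the delta subunit of the chloroplast ATP synthase, fell with log2 fold changes of -1.49 and -1.28, and the leaf ferredoxin gene FD2 with -1.41 and -1.51. Of the photosystem II assembly factors, PAM68 fell with -1.61 and -1.39, PSB27 with -1.43 and -1.27, and PSB28 with -1.23 and -1.37. The kinases STN7 and STN8, which act on antenna and core proteins respectively, fell with -0.63 and -0.89 in cat2 gox1, and with -0.70 and -0.84 in the other line.

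Markers of the leaf's cell types moved as follows. For scale, 26.5% of all tested genes fell and 25.6% rose in cat2 gox1, and 29.2% fell and 27.7% rose in cat2 gox2. The 6 mesophyll markers (RBCS1A, RBCS1B, RBCS2B, RBCS3B, RCA and CA1), themselves genes of carbon fixation, summed to 38574 to 67097 and 17642 to 29534 CPM in the high CO2 and high light groups of cat2 gox1, where 5 fell, and to 42726 to 73800.2 and 22270.1 to 31127 CPM in those of cat2 gox2, where 6 fell. The 4 guard cell markers (MYB60, KAT1, FAMA and HT1) summed to 49.9 to 54.4 and 51.5 to 54.3 CPM in the first line and 45.3 to 57.2 and 47.0 to 63.3 CPM in the second, with 2 lower and 1 higher in each line. The 3 phloem markers (SUC2, APL and AHA3) summed to 485 to 689 and 391 to 433 CPM and to 593 to 677 and 434 to 598 CPM, with 2 lower in cat2 gox1 and 0 in cat2 gox2. The 4 markers of dividing cells (CYCB1;1, KNOLLE, CYCB1;4 and CYCB1;5) summed to at most 13.0 CPM in any library, and 0 of them passed the test in cat2 gox1 and 1, CYCB1;5, rose in cat2 gox2. No marker was at 0 in any library. The mesophyll sum thus moved with the 43 genes, and its part in their fall was not tested.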

How the data were processed

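RNA came from pooled leaves, and the libraries were stranded and made from mRNA, per the labels' protocols. The submitters' processing notes name Trim Galore 0.3.3, TopHat2 2.1.0, featureCounts of Subread 1.4.6 and the TAIR10 build. How strand and multiply aligned reads were treated in counting is not given in these sources. The deposited values are raw counts per gene in 12 libraries. Of 33604 entries, 2 name no gene. After filterByExpr (minimum count 10, total 15), 18967 loci with 99.97% of counts were tested.

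Tests used R 4.3.3 and edgeR 4.0.16, with TMM scaling, 1 mean per group over all 12 libraries, 5 contrasts by the two-sided quasi-likelihood test, and Benjamini-Hochberg adjustment over all tested genes. The biological coefficient of variation was 0.211. SEs were taken from the fold change and its F statistic. The p-values of this test weigh a difference between groups against the spread between libraries, each a pool of plants. The fit was tested on simulated data. Alternatives used DESeq2 1.42.0, other filters and scalings, and fewer libraries. Names and TAIR10.1 positions were matched by locus. All members are described, and of the other lists up to 2 genes with the largest change per list and line are named. Under high CO2, deviations of same-numbered libraries of both lines correlated at 0.43, 0.50 and 0.76 over tested genes, so the numbers were also used as a block there. The members and lists were chosen with earlier results of these data known.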

Additional observations from a re-analysis of the deposited data

How the results depend on the processing

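The direction held in all alternatives run for all members except 2. In cat2 gox1, LHCB1.4 turned to 0.073 without high light replicate 3 of that line (adjusted p = 0.91; -0.58 to 0.073 over the fits that left out 1 replicate). PSAE2 in cat2 gox1 turned to 0.073 without that replicate (-0.22 to 0.073 over such fits) and to 0.069 without the 4 libraries numbered 3. Neither had been called. The count of genes lower in cat2 gox1 was 37. It was 35 to 39 with DESeq2's size factors, with DESeq2, with no filter or with a stricter filter, 27 with only the groups compared, and 26 to 39 over the fits that left out 1 replicate. In cat2 gox2 it was 41, against 39 to 41, 41 and 34 to 41. With only the groups compared, 4359 of 18498 tested genes fell in cat2 gox1 and 5122 of 18401 in cat2 gox2. Photosystem I genes lower in cat2 gox1 numbered 5 with only the groups compared, against 9, and photosystem II genes lower in cat2 gox1 numbered 6 to 10 over the fits that left out 1 replicate, against 10. The cause was not tested. With near-identical LHCB copies summed, 33 and 38 of 39 features fell, beside 5019 and 5538 of all 18963 tested. The line differences and the difference of responses gave 0 called members in all alternatives run.

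With the replicate number as a block, 41 of 43 genes fell in cat2 gox1 and 41 in cat2 gox2, beside 5722 and 6154 of 18967 tested genes. At an unadjusted p under 0.05 that fit gave 1 member (LHCB4.3) for the line difference under high CO2. It gave 3 (LHCB1.1, LHCB2.1 and LHCB2.3) after high light and 0 for the difference of responses, and called 0 in each. Of all tested genes, 3.8%, 23.8% and 12.8% had such a p in these 3 comparisons. The labels do not say that numbers pair the libraries. The correlations of same-numbered libraries' deviations ran from -0.21 to 0.76 over 18 pairs, against -0.64 to 0.50 over 36 pairs with different numbers.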
